A study of Rosa hybrid cultivar with 39 samples.

Results

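The genes described here are those whose level in rose petals was at least 2-fold lower in abscisic acid (ABA) and at least 2-fold higher in brassinosteroid (BR) than in water (H2O). They were chosen by these measured values, and 75 of 30208 gene identifiers met the rule. The rule sums the FPKM of all transcripts with a common identifier, asks for at least 1 FPKM in H2O or BR, and uses log2 ratios of FPKM plus 1, with a ratio of -1 or less in ABA and of 1 or more in BR. FPKM counts fragments relative to transcript length and library size. The minimum was met by 14050 genes, so the members are 0.534% of them.

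'Samantha' is a red hybrid tea rose cultivar grown for cut flowers, and RNA was taken from the outer petals of flowers cut at opening stage 2. Stems stood for 24 h in 100 µM ABA, 5.0 µM 2,4-epibrassinolide (BR), 80 µM gibberellic acid (GA), 50 µM jasmonic acid (JA), 100 µM salicylic acid (SA), 80 µM silver nitrate (AgNO3), 100 µM of the synthetic auxins NAA and 2,4-D, 100 µM of the cytokinin 6-BA, or in deionized water (H2O). Other flowers were held for 24 h in gas, with 2 µL per L of 1-methylcyclopropene (1-MCP) or in plain air (AIR). Each condition had 3 replicates, each drawn from 4 flowers, and all come from 1 cultivar and 1 time point.

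The expression values are 1 average FPKM per condition, given by the authors as the mean of its replicates. The spread between replicates can therefore not be given, no difference could be tested, and every comparison below is a description of averages. The values themselves hold no read depth. The paper lists clean reads and RNA quality for each replicate, and neither was used here. The values deposited for ethylene (ET) are identical to those of AIR, so ET was not analysed here, and the 2 gases cannot be told apart as the source of the values named AIR. That leaves 12 conditions, 10 in solution and 2 in gas. The genes carry identifiers that the files do not pair with names, so the roles of single members are not given and the petal origin was not checked on marker genes. In petal RNA, fewer cells of a type and less RNA per cell cannot be told apart.

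ABA is the hormone of drought and dormancy. In Arabidopsis it binds soluble receptors that block protein phosphatases and so release kinases which switch on water stress genes. BR are plant steroids that promote cell elongation. In Arabidopsis they bind a receptor kinase at the cell surface, and the signal leads to the accumulation of transcription factors that act on many growth genes. In cut flowers, petal growth, water balance and senescence all lie under hormonal control.

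The ABA and BR ratios of the members are what selected them, and they carry no test. The members make up 29.0% of the 259 genes that were at least 2-fold lower in ABA and 6.14% of the 1222 genes that were at least 2-fold higher in BR. Genes at least 2-fold lower in ABA were 1.90% of all genes compared, and genes at least 2-fold higher in BR were 8.70%. The log2 ratio of ABA to H2O ran from -2.88 to -1.001 with a median of -1.30, and that of BR to H2O from 1.01 to 3.49 with a median of 1.44. The distance between the BR and ABA ratios ran from 2.09 to 5.28, with a median of 2.85. A pseudocount of 1 holds these ratios down in weakly expressed genes.

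**Figure D1:**
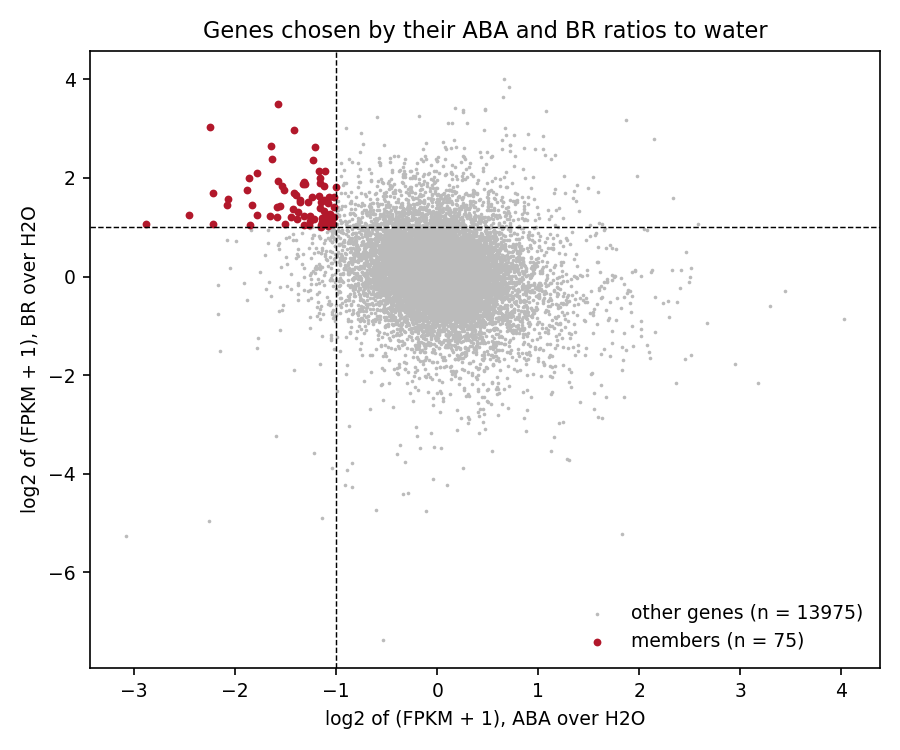
Each point is a gene of at least 1 FPKM in H2O or BR, with the log2 ratio of FPKM plus 1 of ABA over H2O on the x axis and of BR over H2O on the y axis. The 75 members (red) fill the corner beyond the dashed lines at -1 and 1, which is the rule itself, and grey points are the other genes.

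Some genes lay close to the thresholds. LOC112177173 was just inside, at 3.74 FPKM in ABA, 32.6 in BR and 8.49 in H2O, with an ABA ratio of -1.001. LOC112177066, just outside, was at 1.16 FPKM in ABA, 10.2 in BR and 3.31 in H2O. On the BR side, LOC112170392 entered at a ratio of 1.01, and LOC112191696, at 2.88 FPKM in ABA, 17.3 in BR and 8.17 in H2O, stayed out at 0.996. The member with the lowest levels was LOC112169827, at 0.00703 FPKM in ABA, 3.71 in BR and 1.04 in H2O. In such a gene, the ABA ratio can barely pass -1 however low the ABA value is.

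The members ranged from abundant to scarce transcripts. In BR the median member was at 19.4 FPKM, the lowest at 3.71 and the highest at 534, while the median of all 14050 genes was 10.1. In H2O the median member was at 6.00 FPKM, against 9.19 over all genes, with a range of 1.04 to 197. In ABA the median member was at 1.4999 FPKM and 30 members were under 1 FPKM. None was under 1 FPKM in H2O, which the rule itself fixes. Of these, 9 were under 0.1 FPKM in ABA, although none was listed at exactly 0. The summed FPKM of the 75 members was 438 in ABA and 3948 in BR, against 1314 in H2O.

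The position of the members in the 9 conditions that the rule did not use was not fixed by it. Ordered by the median level of the members, the conditions were ABA at 1.4999 FPKM, 6-BA at 4.01, H2O at 6.00, 2,4-D at 7.59, NAA at 8.09, AIR at 8.19, 1-MCP at 8.68, JA at 12.3, SA at 12.9, AgNO3 at 13.1, GA at 17.2 and BR at 19.4. Neighbours in this order lie close together beside the range of the members within a condition, and which of them differ beyond the replicates was not tested. Over all genes the same medians varied only between 9.19 in H2O and 10.5 in AgNO3.

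**Figure D2:**
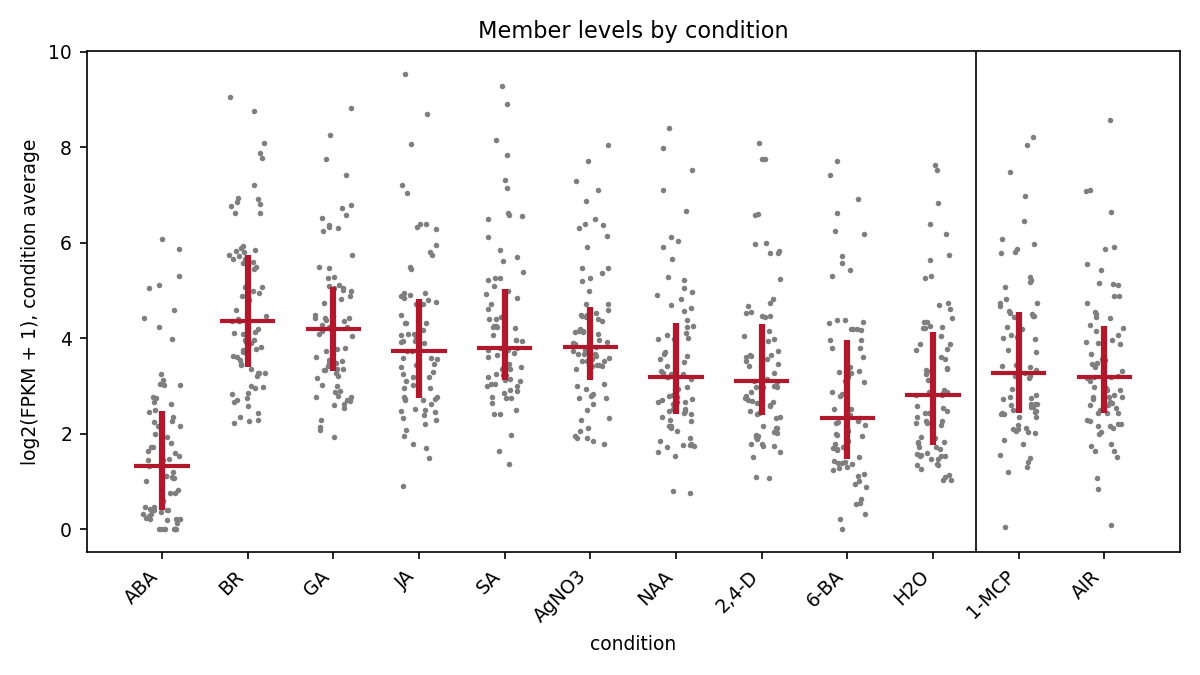
The y axis gives log2(FPKM + 1) of the condition average and the x axis the 12 conditions, with vase solutions left of the line and gases right of it. Each grey point is a member, the red horizontal line the median over the 75 members and the red vertical bar the range between their lower and upper quartiles, a spread between genes and not between replicates. The median was lowest in ABA, at 1.32, and highest in BR, at 4.35.

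ABA was the lowest of the 10 solutions for 73 of the 75 members. The exceptions were LOC112201649 and LOC112194607, which were lowest in NAA. The rule sets ABA below H2O and BR above it, so it favours the ranks given here for ABA, H2O and BR. Ranks were not counted for other genes. H2O was the second lowest solution for 13 members and the third lowest for 47, and 6-BA lay below H2O for 52. A level in 6-BA above that in H2O was found in 30.7% of the members and 49.5% of all genes. It was found in 66.2% of the other genes higher in BR and 14.1% of the other genes lower in ABA. BR was the highest solution for 43 members, and for 70 it was among the highest 4. SA was highest for 16 members, AgNO3 for 9, GA for 5 and JA for 2, so that a higher level than in H2O was shared with other treatments in most members. All of GA, JA, SA and AgNO3 lay above H2O in 67 members, a joint count that was not made for other genes. Taken singly, GA, JA, SA and AgNO3 lay above H2O in 98.7%, 97.3%, 96.0% and 94.7% of the members. The shares were 98.7%, 99.3%, 94.3% and 95.8% of the other genes higher in BR. Over all genes they were 57.0%, 55.9%, 56.0% and 56.8%.

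Against H2O, the other treatments in solution gave different counts, which are set beside the share of all genes in each. All of them share the H2O average with the rule, so these ratios are not independent of it. In GA, 49 of 75 members were at least 2-fold higher, against 7.72% of all genes, and none was at least 2-fold lower, against 3.36%. In SA, 42 were higher, against 7.70%, and none lower, against 3.00%. In AgNO3, 36 were higher, against 7.93%, and none lower, against 3.06%. In JA, 31 were higher, against 6.17%, and 1 was lower, against 2.49%. The genes higher in BR that were not members had like shares at least 2-fold higher, 58.5% in GA, 50.8% in SA, 52.3% in AgNO3 and 44.8% in JA, beside 65.3%, 56.0%, 48.0% and 41.3% of the members. The difference between these shares was not tested. The rule also fixes at least 1 FPKM in H2O for the members but not for that list, and the pseudocount holds ratios down in weakly expressed genes.

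The auxins and the cytokinin stood nearer to H2O. In NAA, 16 members were at least 2-fold higher, against 2.30% of all genes, and 4 lower, against 0.325%. In 2,4-D, 7 were higher, against 2.15%, and none lower, against 0.568%. In 6-BA, 1 was higher, against 0.866%, and 7 were lower, against 0.481%. Of the other genes higher in BR, 20.2% were at least 2-fold higher with NAA, 15.3% with 2,4-D and 3.64% with 6-BA. At least 2-fold lower were 0.192%, 0.0963% and 0.642% of that list. The members had 21.3%, 9.33% and 1.33% higher. Of the other genes lower in ABA, 8.15%, 7.61% and 8.70% were lower, beside 5.33%, none and 9.33% of the members. No test was made between these lists. The median log2 ratio of the members to H2O was 1.14 in GA, 1.08 in SA, 0.92 in AgNO3, 0.85 in JA, 0.39 in 2,4-D, 0.37 in NAA and -0.15 in 6-BA. Over all genes the largest of these medians was 0.09, in AgNO3. Counted over these 7 treatments, 17 members were at least 2-fold higher in none of them, and 3 were higher in 6, namely LOC112174497, LOC112187313 and LOC112182111. This was counted in the members only, so whether it differs from other genes higher in BR is not known.

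**Figure D3:**
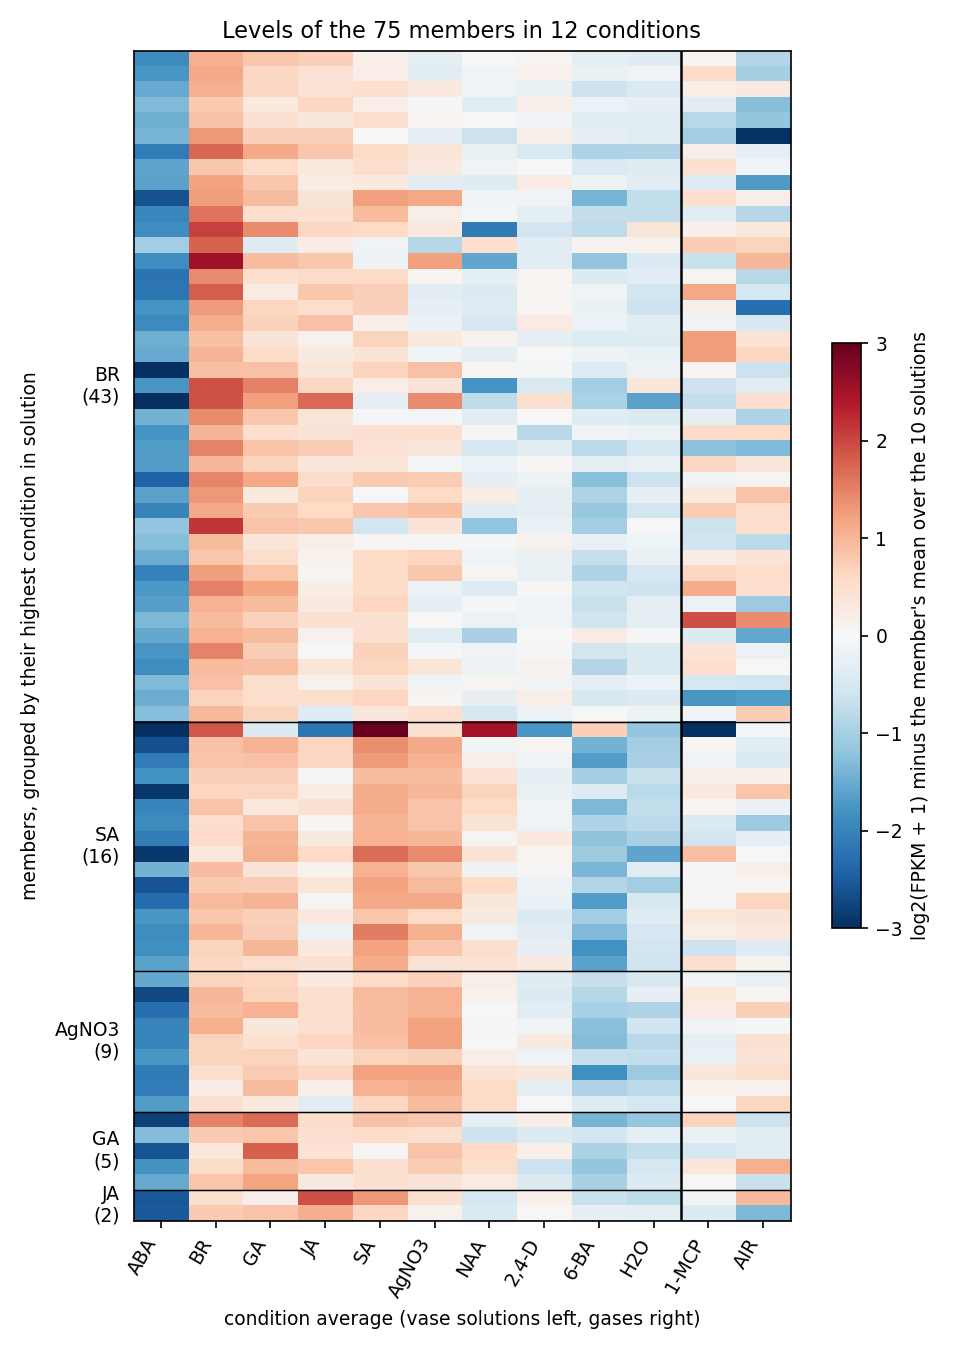
Rows are the 75 members, grouped by the solution in which each was highest (number of members in brackets), and columns are the 12 condition averages, with gases right of the vertical line. Colour gives log2(FPKM + 1) minus the mean of the member over the 10 solutions, from blue (lower) to red (higher). The ABA column is the lowest solution in 73 rows, and the 43 members at the top are highest in BR, while 30 further down are highest in SA, AgNO3 or GA. Low ABA and high BR levels are favoured by the rule itself.

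Among the 12 members with the highest FPKM in BR, LOC112172997, on NC_037093.1 from 1100989 to 1103536 of RchiOBHm-V2, was the most abundant. It was at 66.5 FPKM in ABA, 534 in BR, 451 in GA, 417 in JA, 284 in SA, 208 in AgNO3, 254 in NAA, 271 in 2,4-D, 208 in 6-BA and 197 in H2O. In gas it was at 263 in 1-MCP and 137 in AIR. Its ABA average was thus far below all others, and BR, GA and JA were the highest.

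LOC112182149 (NC_037088.1, positions 8693329 to 8694810), was second, at 58.0 FPKM in ABA, 436 in BR, 304 in GA, 267 in JA, 229 in SA, 155 in AgNO3, 182 in NAA, 215 in 2,4-D, 171 in 6-BA and 185 in H2O. Apart from ABA, its levels in solution stayed within 2-fold of H2O except in BR. LOC112186924 (NC_037089.1, positions 9398259 to 9405589), was at 38.6 in ABA, 235 in BR, 171 in GA, 147 in JA, 159 in SA, 137 in AgNO3, 101 in NAA, 96.4 in 2,4-D, 71.7 in 6-BA and 82.8 in H2O. In this gene the levels in 6-BA and H2O were close to each other and all remaining treatments but ABA were higher.

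LOC112195243, on NC_037090.1 from 7438870 to 7534178, had another order. It was at 32.4 FPKM in ABA and 271 in BR, but at 747 in JA and 478 in SA, with 265 in AgNO3, 215 in GA, 214 in 2,4-D, 136 in NAA, 121 in 6-BA and 114 in H2O. In gas it was at 179 in 1-MCP and 377 in AIR. BR was only the third highest solution for this member. Its deposited locus holds 3 other identifiers, of which LOC112195242, at 5.39 FPKM in ABA, 2.40 in BR and 2.70 in H2O, was the highest in BR. The others were at 0.992 and 0.316 in ABA, so the partners held a larger share of the locus in ABA than in BR.

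LOC112185870, on NC_037089.1 from 44140086 to 44144120, had a wide range, at 7.14 FPKM in ABA, 115 in BR, 75.5 in GA, 61.1 in JA, 50.9 in SA, 43.7 in AgNO3, 29.1 in NAA, 24.6 in 2,4-D, 17.3 in 6-BA and 17.8 in H2O. Its log2 ratio to H2O was -1.21 in ABA and 2.62 in BR. LOC112192591, on NC_037090.1 from 15228566 to 15230919, was at 7.70 in ABA, 98.3 in BR, 111 in GA, 82.8 in JA, 141 in SA, 117 in AgNO3, 49.6 in NAA, 56.0 in 2,4-D, 19.3 in 6-BA and 24.97 in H2O. The first of these peaked in BR and the other in SA, where it exceeded its BR level.

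The remaining 6 of the 12 were LOC112166152, LOC112186869, LOC112181581, LOC112184995, LOC112172259 and LOC112168074. LOC112166152 was at 33.6 FPKM in ABA and 147 in BR, against 72.0 in H2O. LOC112186869 was at 23.2 in ABA and 122 in BR, against 52.6 in H2O, and LOC112184995 at 20.6 in ABA and 111 in BR, against 49.2 in H2O. None of these 3 was at least 2-fold above H2O in another treatment.

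Of all members over the 12 averages, LOC112168074 (NC_037092.1, positions 70413193 to 70414188), varied the most. It was at 4.63 FPKM in ABA, 218 in BR, 44.0 in GA, 12.3 in JA, 624 in SA, 82.1 in AgNO3, 339 in NAA, 16.9 in 2,4-D, 97.4 in 6-BA and 25.8 in H2O, and in gas at 3.05 in 1-MCP and 57.7 in AIR. It had the widest distance between its BR and ABA ratios, 5.28, and was the 1 member at least 2-fold lower in JA and the 1 member at least 2-fold higher in 6-BA. The 2 auxins fell on opposite sides of H2O in this gene. Its Pearson correlation with the median profile of the members over the 9 conditions outside the rule was 0.0183.

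Next in the distance between both ratios, among members of at least 10 FPKM in BR, was LOC112176814, on NC_037094.1 from 45573138 to 45576027. It was at 0.00154 FPKM in ABA, 32.8 in BR, 20.4 in GA, 28.5 in JA, 6.53 in SA, 23.3 in AgNO3, 4.31 in NAA, 11.6 in 2,4-D, 3.69 in 6-BA and 2.00 in H2O. Its log2 ratio of 3.49 in BR was the largest of all members. The third was LOC112173117 (NC_037088.1, positions 63847570 to 63848746), at 1.72 in ABA, 56.3 in BR, 17.8 in GA, 16.1 in JA, 7.85 in SA, 22.04 in AgNO3, 2.33 in NAA, 6.92 in 2,4-D, 3.31 in 6-BA and 6.28 in H2O. Both were low in ABA and NAA beside BR, and LOC112173117 was at least 2-fold lower in NAA than in H2O.

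LOC112190944 (NC_037089.1, positions 82118236 to 82120327), was at 0.503 FPKM in ABA, 28.5 in BR, 32.2 in GA, 14.4 in JA, 18.1 in SA, 17.2 in AgNO3, 7.81 in NAA, 10.9 in 2,4-D, 2.96 in 6-BA and 3.69 in H2O. GA exceeded BR slightly in this gene. LOC112172696, on NC_037093.1 from 13857273 to 13860425, was the farthest below H2O in ABA. It was at 1.91 in ABA and 44.1 in BR, against 20.5 in H2O, and its levels in GA and AgNO3, 43.4 and 43.3, were nearly those in BR. LOC112201649 (NC_037092.1, positions 9858760 to 9860175), was at 2.98 in ABA, 58.7 in BR and 2.31 in NAA, against 17.5 in H2O. It was 1 of the 4 members at least 2-fold lower in NAA, with LOC112194607, LOC112168758 and LOC112173117.

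LOC112194607, which was chosen for mention after its values were seen, shared its low NAA level with LOC112201649. It was at 2.50 FPKM in ABA, 42.9 in BR, 32.1 in GA, 17.0 in JA, 12.4 in SA, 14.2 in AgNO3, 2.44 in NAA, 7.51 in 2,4-D, 4.73 in 6-BA and 13.7 in H2O. Both were at least 2-fold lower than H2O in NAA and 6-BA as well as in ABA, and both lay at least 2-fold above H2O in GA in addition to BR. LOC112194607 lies on NC_037090.1 at positions 9904693 to 9905880.

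Members highest in BR and members highest in another treatment were then described apart, a division made after the values were seen. BR was the highest solution for 38 of the 54 members of at least 10 FPKM in BR and for 5 of the 21 members below that. Both the level and the rank use the BR average, so a high level in itself favours BR as the highest. Within the 43 members highest in BR, the next highest solution was GA in 26, SA in 7, JA in 6, AgNO3 in 3 and NAA in 1. The BR level exceeded the next one by a median log2 ratio of 0.40, and by at least 2-fold in 4 members, LOC112173117, LOC112168758, LOC112189819 and LOC112173488. Whether the BR average of the others differs from the next one beyond the replicates was not tested.

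LOC112189819 was the member least like the rest, with a correlation of -0.41 with their median profile. It was at 7.22 FPKM in ABA, 56.3 in BR, 12.2 in GA, 18.9 in JA, 14.3 in SA, 8.32 in AgNO3, 22.9 in NAA, 12.3 in 2,4-D, 17.2 in 6-BA and 17.6 in H2O, and in gas at 27.5 in 1-MCP and 25.9 in AIR. BR alone stood at least 2-fold above H2O in it, and AgNO3, with a log2 ratio of -0.99, was nearly as low as ABA. LOC112173488 was at 2.30 in ABA and 52.5 in BR, against 9.22 in H2O, with JA at 25.5 as its next highest solution. LOC112164947 (NC_037092.1, positions 32562554 to 32567308), also among the 10 with the widest distance, was at 5.74 in ABA, 97.6 in BR, 94.96 in SA, 89.9 in AgNO3 and 14.6 in 6-BA, against 23.6 in H2O.

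The 32 members highest in another treatment differed in level. The 16 that peaked in SA had a median of 17.6 FPKM in SA, 15.3 in AgNO3 and 11.8 in BR, against 3.69 in H2O. The 9 that peaked in AgNO3 had a median of 9.82 in AgNO3, 9.24 in SA and 6.97 in BR, against 1.92 in H2O. The 5 that peaked in GA had a median of 17.9 in GA and 8.62 in BR, against 3.68 in H2O. These medians in BR lie below the 42.9 FPKM of the 43 members highest in BR, a grouping that itself uses the BR level. The 2 that peaked in JA were LOC112195243, given above, and LOC112184739, at 25.3 in JA and 20.3 in BR, against 9.12 in H2O.

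LOC112187313, on the list of those higher in 6 other treatments, was at 0.340 FPKM in ABA, 11.2 in BR, 19.7 in GA, 13.9 in JA, 30.5 in SA, 25.4 in AgNO3, 11.8 in NAA, 9.55 in 2,4-D, 3.75 in 6-BA and 2.31 in H2O. LOC112174497 was at 1.10 in ABA, 12.3 in BR, 17.3 in GA, 9.91 in JA, 17.5 in SA, 16.9 in AgNO3, 8.53 in NAA, 10.002 in 2,4-D, 2.86 in 6-BA and 3.56 in H2O. In both, BR was exceeded by GA, SA and AgNO3. LOC112182111 was at 0.0115 in ABA, 5.33 in BR, 9.24 in SA, 9.27 in AgNO3 and 0.244 in 6-BA, against 1.06 in H2O.

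Pairs of conditions that share neither the H2O average nor ABA or BR were compared next, so that none of their values entered the rule. The 3 pairs are GA over NAA, SA over 2,4-D and JA over 6-BA, and no condition occurs in more than 1 of them. The pairs were chosen with earlier results of these data known. In each pair, the first condition had the higher median level of the members in the order given above. These medians were 17.2 against 8.09 FPKM, 12.9 against 7.59 and 12.3 against 4.01. The direction of the counts is therefore no result separate from that order. In GA over NAA, 25 of 75 members were at least 2-fold higher, against 3.29% of all genes, and 1 was lower, against 2.38%. In SA over 2,4-D, 25 were higher, against 2.96%, and none lower, against 1.81%. In JA over 6-BA, 45 were higher, against 5.69%, and 1 lower, against 2.30%.

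The median log2 ratio of the members was 0.75 in GA over NAA, 0.75 in SA over 2,4-D and 1.08 in JA over 6-BA, and over all genes it was 0.01, 0.05 and 0.05. Ratios above 0 were found in 70, 68 and 72 of the 75 members, or 93.3%, 90.7% and 96.0%. The shares above 0 were 89.9%, 79.1% and 97.0% of the other genes higher in BR, and 51.6%, 54.8% and 55.2% of all genes. Of the genes higher in BR that were not members, 19.2% were at least 2-fold higher in GA over NAA, 18.7% in SA over 2,4-D and 38.3% in JA over 6-BA, where the members had 33.3%, 33.3% and 60%. Genes lower in ABA that were not members had 7.22%, 8.84% and 11.2%. Their medians were 0.22, 0.29 and 0.32, and those of the other genes higher in BR were 0.60, 0.52 and 0.85. These differences between lists were not tested. The lists also differ in level, since the rule fixes at least 1 FPKM in H2O for every member. Of the 1147 other genes higher in BR, 907 reached 1 FPKM in ABA or H2O. The pseudocount holds ratios down in weakly expressed genes, so the shares of members and of that list are not on equal terms.

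**Figure D4:**
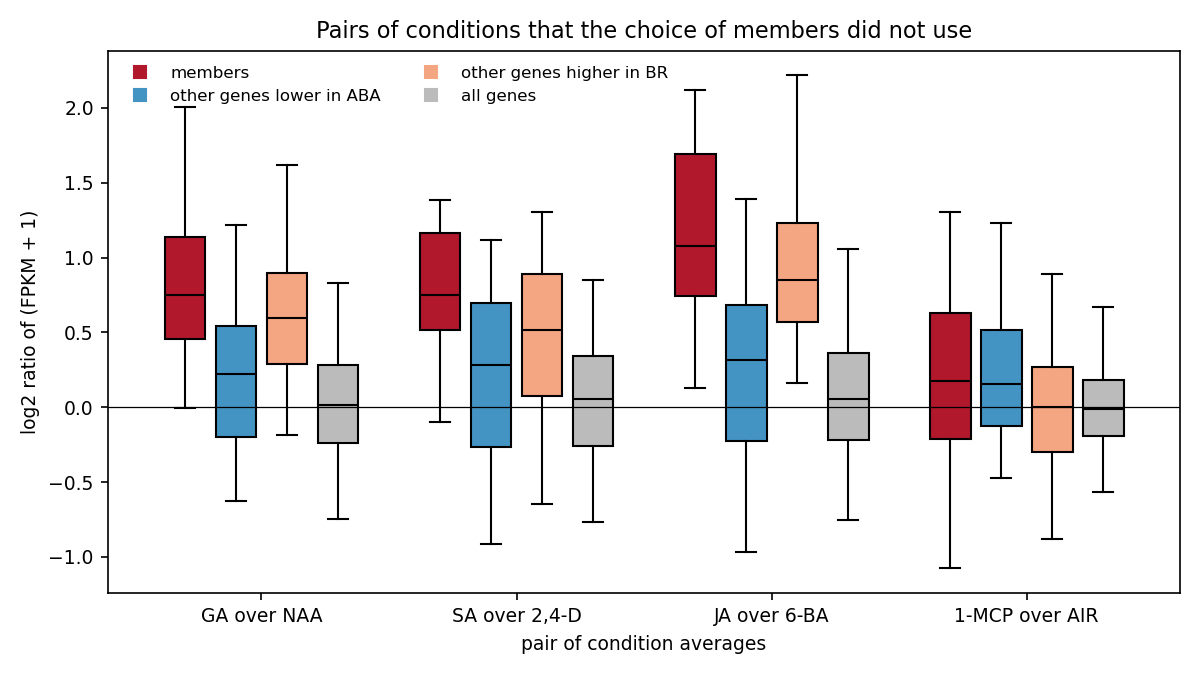
The y axis gives the log2 ratio of FPKM plus 1 and the x axis 4 pairs of condition averages that the rule did not use. Boxes span the lower to the upper quartile of genes, with the median as a line and whiskers at the 5th and 95th percentiles, for the members (red), the other genes lower in ABA (blue), the other genes higher in BR (orange) and all genes that reached 1 FPKM in 1 or both conditions (grey). The medians of the members are 0.75, 0.75 and 1.08 in the first 3 pairs and 0.17 in 1-MCP over AIR.

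The member lower in both GA over NAA and JA over 6-BA was LOC112168074, at 44.0 FPKM in GA against 339 in NAA and at 12.3 in JA against 97.4 in 6-BA. It was also the extreme on the other side in SA over 2,4-D, with a log2 ratio of 5.13. In GA over NAA, LOC112201649 and LOC112194607 had the highest ratios, 3.56 and 3.27. In JA over 6-BA, LOC112176814 had the highest, 2.65, followed by LOC112195243 with 2.62.

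1-MCP blocks ethylene receptors, and its comparison with AIR shares no condition with the rule. The values named AIR may come from air or from ethylene, as stated above, which holds for every ratio to AIR. Of 74 members that reached 1 FPKM in either gas, 7 were at least 2-fold higher in 1-MCP, against 1.73% of all genes, and 5 were lower, against 1.23%. The member that did not reach it was LOC112191751, at 0.0278 FPKM in 1-MCP and 0.0628 in AIR, though it was at 4.43 in BR, 4.35 in SA and 1.58 in H2O. The median log2 ratio of the members was 0.17, against -0.01 over all genes, and 45 of the 74, or 60.8%, had a ratio above 0, against 48.0% of all genes. Members at least 2-fold apart were thus found in both directions, and the genes lower in ABA that were not members had a like median, 0.16, with 11.0% at least 2-fold higher and 2.31% lower. The other genes higher in BR had a median of 0.00, with 3.23% at least 2-fold higher and 4.24% lower. That list, unlike the members, also holds genes under 1 FPKM in H2O.

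The largest increase was that of LOC112185661 (NC_037089.1, positions 71371772 to 71373573), at 22.2 FPKM in 1-MCP against 3.34 in AIR. In solution it was at 5.13 in ABA and 49.9 in BR, against 12.7 in H2O. LOC112181581 (NC_037088.1, positions 55455595 to 55458325), was at 22.7 in 1-MCP against 5.26 in AIR. In solution it was at 17.8 in ABA and 120 in BR, against 38.6 in H2O. In both genes the AIR average was even lower than the ABA average, which also held for LOC112172259, at 35.4 in 1-MCP against 13.7 in AIR, with 14.7 in ABA.

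Of the others higher in 1-MCP, LOC112173488 was at 32.9 FPKM in 1-MCP against 9.53 in AIR, and LOC112182149 at 296 in 1-MCP against 99.3 in AIR. LOC112190944 was at 15.7 in 1-MCP against 5.80 in AIR, and LOC112173606 at 3.57 in 1-MCP against 1.11 in AIR. Of these 7 genes, 6 were highest in BR among the solutions, and the exception was LOC112190944, whose GA level lay slightly above.

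The members lower in 1-MCP were LOC112168074, at 3.05 FPKM in 1-MCP against 57.7 in AIR, LOC112173117, at 5.16 in 1-MCP against 18.5 in AIR, LOC112176814, at 4.52 in 1-MCP against 11.8 in AIR, LOC112168758, at 1.47 in 1-MCP against 4.43 in AIR, and LOC112195243, at 179 in 1-MCP against 377 in AIR. Their log2 ratios were -3.86, -1.66, -1.21, -1.14 and -1.08. The 3 members with the widest distance between BR and ABA were among these 5. For 3 members, LOC112182354, LOC112186759 and LOC112172070, 1-MCP gave the highest level of all 12 conditions, with 61.6, 54.3 and 25.8 FPKM, against 33.8, 34.7 and 17.6 in AIR.

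**Figure D5:**
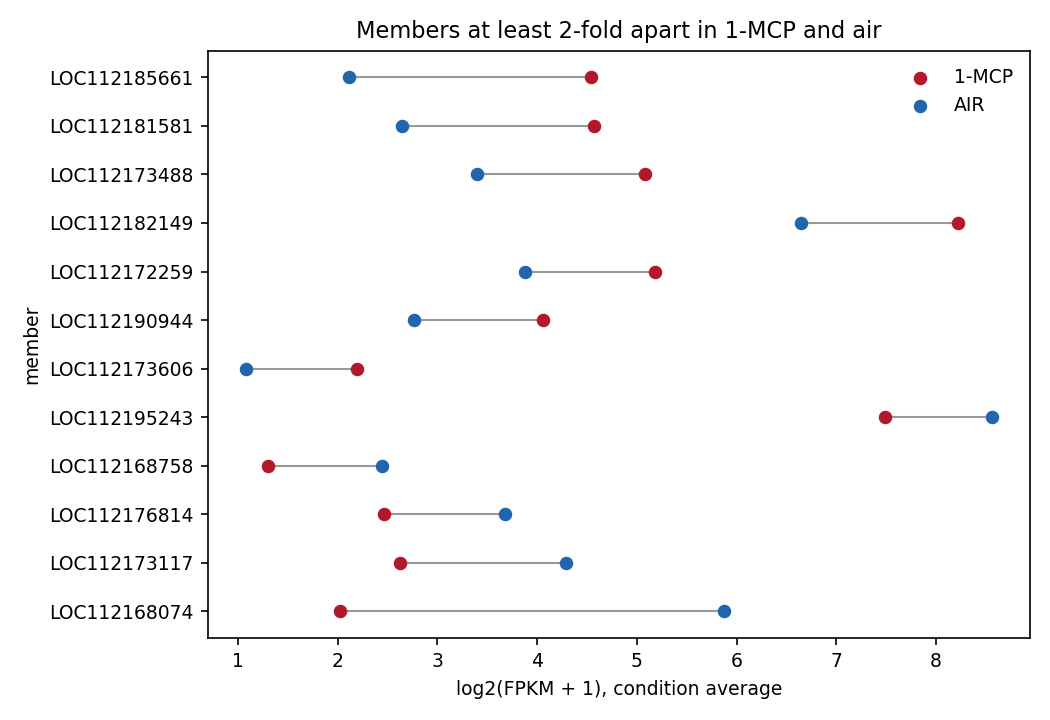
The x axis gives log2(FPKM + 1) of the condition average and each row is a member at least 2-fold apart in 1-MCP (red) and AIR (blue). The upper 7 are higher in 1-MCP, with LOC112185661 the farthest apart at a log2 ratio of 2.42, and the lower 5 are lower, with LOC112168074 at -3.86.

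The profiles of the members over the 9 conditions outside the rule were alike to varying degrees. The Pearson correlation of a member with the median profile of the members had a median of 0.78, reached at least 0.8 in 36 members and was under 0.5 in 16. These correlations are over 9 averages and include each member itself in the median. Such counts were not made for other genes, so whether the members are more alike than others is not known. Among the 8503 genes of at least 10 FPKM in any condition, the 5 most like that profile were LOC112185687 at 0.992, LOC112186629 at 0.989, LOC112173398 at 0.976, LOC112169725 at 0.972 and LOC112176425 at 0.972. Only LOC112186629 is a member among these 5. It was at 0.389 FPKM in ABA, 19.5 in BR, 15.5 in GA, 10.01 in JA, 11.99 in SA, 11.8 in AgNO3, 5.31 in NAA, 5.71 in 2,4-D, 2.16 in 6-BA and 3.79 in H2O.

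The other genes of this profile were higher in BR but short of the ABA threshold. LOC112185687 was at 3.68 FPKM in ABA and 24.6 in BR, against 5.83 in H2O, with an ABA ratio of -0.55. LOC112176425 was at 16.9 in ABA and 93.2 in BR, against 21.3 in H2O. In both genes the BR ratio passed the threshold and the ABA ratio did not.

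The members lie on 7 chromosome sequences of RchiOBHm-V2. NC_037088.1 holds 17, which is 22.7% of the members and 1.02% of its genes compared, while 11.9% of all genes compared lie on it. NC_037091.1 holds 4, or 5.33% of the members, against 13.2% of all genes. NC_037089.1 holds 16 members, NC_037092.1 and NC_037093.1 hold 12 each, NC_037090.1 holds 8 and NC_037094.1 holds 6. The uneven share was not tested.

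No 2 members lay side by side. The closest in bases were LOC112188595 and LOC112188864 on NC_037089.1, with 167.81 kb and 7 other expressed genes between them. In LOC112188595 the levels were 2.82 FPKM in ABA and 23.1 in BR, against 9.39 in H2O, and in LOC112188864 they were 3.51 in ABA and 54.9 in BR, against 15.6 in H2O. LOC112180925 and LOC112167957 on NC_037088.1 were 190.715 kb apart, with 6 expressed genes between them. LOC112164974 and LOC112165928 on NC_037092.1 were 208.87 kb apart, with 2 between them. Distances were taken between deposited loci, and those of LOC112167957 and LOC112164974 are shared with other identifiers.

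The deposited locus was shared with another identifier in 10 members, or 13.3%, against 17.0% of all genes compared. Of these members, 8 had a partner of at least 1 FPKM in H2O or BR. None of the 10 such partners was at least 2-fold higher in BR, against 8.70% of all genes compared. At so few partners this was not tested. At least 2-fold lower in ABA was 1 of them, against 1.90% of all genes. This was LOC112175453, at 84.9 FPKM in ABA and 120 in BR, against 191 in H2O, while the member at its locus, LOC112175464, was at 5.33 in ABA and 49.6 in BR, against 18.1 in H2O. Both averages were lower in ABA than in H2O, and in BR the member was higher and its partner lower. LOC112178772, at 1.4999 in ABA and 12.5 in BR, against 4.42 in H2O, shares its locus with LOC112178773, at 1257 in ABA and 1478 in BR, against 1184 in H2O. How reads were divided between identifiers of a locus was not tested.

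Most members, 61 or 81.3%, are listed with 1 transcript, against 77.9% of all genes compared. Of the 14 with several, 10 had the same leading transcript in ABA, BR and H2O, and in 6 of these it held at least 90% of the gene in each. The leading transcript was not followed in other genes. LOC112182149 is listed with 4 transcripts, 1 of them at nearly 0, of which the leading one was at 33.4 FPKM in ABA and 202 in BR, against 77.7 in H2O, and the next one in BR was at 5.54 in ABA and 149 in BR, against 53.3 in H2O. Both lay below H2O in ABA and above it in BR.

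In 4 members the leading transcript differed in ABA, and all 4 were under 1 FPKM there, so the lead in ABA rests on low values. In LOC112190944, 1 transcript was at 0.503 FPKM in ABA and 11.1 in BR, against 1.27 in H2O, and the other was listed at nearly 0 in ABA and at 17.3 in BR, against 2.42 in H2O. In LOC112170497 the transcript that held 99.9% of the H2O level was listed at nearly 0 in ABA, where the other one was at 0.290. LOC112170392 and LOC112186933 were the remaining cases, with summed levels of 0.0891 and 0.151 FPKM in ABA.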

How the data were processed

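The values are FPKM of petal RNA from 39 samples in 13 conditions. Cleaned reads were mapped by the authors with TopHat2 on RchiOBHm-V2, transcripts came from Cufflinks and Cuffmerge, and the FPKM from Cuffdiff were deposited as 1 average for each transcript and condition. The scaling of FPKM between conditions by the authors is not stated in the methods read. The averages correct for length and library size, so that a strong change in abundant genes can shift all others, and they hold no depth and no replicate spread. The file for ET repeats AIR and was left out.

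FPKM were summed over the 38170 transcripts by identifier. Log2 ratios used a pseudocount of 1 and genes that reached 1 FPKM in 1 or both conditions, and a gene was counted at 2-fold. The test planned for replicate values, limma, could not be run. The members, lists and pairs were chosen with earlier results of these data known. Named are the 12 members highest in BR, the 10 of at least 10 FPKM in BR with the widest distance of both ratios, members 2-fold apart in 1-MCP, genes next to the thresholds, close neighbours, the genes most like the members, and others added after their values were seen. Gene lists by description could not be matched, since the files give identifiers without names. The rule was run on simulated averages, with changes set beyond its thresholds in genes of at least 5 FPKM. Such a run checks the code and says nothing on the members, many of which lie near the thresholds or at lower levels. Alternatives were a pseudocount of 0.1, a minimum of 5 FPKM or none, median scaling, transcripts without summing and a 1.5-fold threshold. Python 3.11.15, numpy 2.4.6, pandas 2.3.3 and matplotlib 3.10.9 were used.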

Additional observations from a re-analysis of the deposited data

How the results depend on the processing

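No paired analysis was possible because the averages carry no replicate numbers, and leaving out replicates was not run for the same reason. With a pseudocount of 0.1 in place of 1, 334 genes met the rule, with all 75 members among them, and with a 1.5-fold threshold 418 did, again with all 75. Median scaling left 73 genes, of which 65 are members, so that 10 members rest on the scaling of the averages. A minimum of 5 FPKM left 69. Without a minimum the list is the same 75 by construction, since an ABA ratio of -1 or less already requires at least 1 FPKM in H2O. Without summing, 105 transcripts of 104 genes met the rule, with 72 members among the genes. With the members held as they are, the 1.5-fold threshold gave 20 higher and 11 lower in 1-MCP over AIR, 48 higher and 2 lower in GA over NAA, and 49 higher and 1 lower in SA over 2,4-D. Without summing, 2 transcripts were lower in JA over 6-BA. With a pseudocount of 0.1, 11 members were lower in 6-BA and 1 each in AgNO3 and 2,4-D than in H2O, and median scaling also gave 1 lower in AgNO3. All other counts and medians of the members stayed within 1.5 times of the value given under the alternatives run for them, and each of the 12 members at least 2-fold apart in 1-MCP over AIR stayed so with a pseudocount of 0.1 and with median scaling. Genes of low level depend on the pseudocount, and the averages hold no counts from which an error could be given.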
